A study of Mus musculus with 8 samples.

Results

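The B7 family and 2 of its partners on antigen-presenting cells, Cd40 and Cd83, were examined in spleen and lymph node samples of mice wild-type or knockout for Aire. The members were set by name, with earlier results of these data known: Cd80, Cd86, Icosl, Cd274, Pdcd1lg2, Cd276, Vtcn1, Cd40 and Cd83. Every probe set, that is every group of array probes for a transcript, whose only gene symbol in the platform annotation is one of these was taken. This gave 16 probe sets among the 45037 that are not controls, and 9 genes of 18193. There were 4 groups with 2 Affymetrix arrays each, named A and B within a group: spleen of wild-type and of Aire knockout mice, and lymph node of each genotype. Aire, the autoimmune regulator, drives the display of tissue antigens in the thymus, and the title of the series concerns cells that express it outside the thymus. The labels name the tissue, the Aire genotype and the letter of each array. They give no strain, allele, age, sex, treatment, cell type or sorting step, nor whether the arrays of a group came from separate animals. The p-values below therefore measure only the spread between these samples, which may be technical.

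T cells need a signal beside the antigen receptor, and ligands of the B7 family on antigen-presenting cells supply it. CD80 and CD86 bind CD28, which supports activation, and CTLA-4, which restrains it, while ICOSL binds ICOS. CD40 is a receptor of the tumour necrosis factor receptor family that takes up CD40 ligand from helper T cells and raises CD80 and CD86 on dendritic cells and B cells. CD83 marks mature dendritic cells and protects CD86 and MHC class II molecules from removal from the surface. CD274, also called PD-L1, and PDCD1LG2, also called PD-L2, bind the inhibitory receptor PD-1. CD276 (B7-H3) and VTCN1 (B7-H4) are relatives whose receptors are less well settled. VTCN1 is described as inhibitory, and CD276 has been ascribed both roles. Below, Cd80, Cd86, Icosl, Cd40 and Cd83 are called costimulatory, and Cd274, Pdcd1lg2, Cd276 and Vtcn1 coinhibitory.

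Signals are MAS5 values on a linear scale after each array was shifted to a common median. Aire itself had a signal of 5037 and 5204 on the wild-type spleen arrays, 1009 and 2376 on the knockout spleen arrays, 3052 and 3535 on the wild-type lymph node arrays, and 791 and 1137 on the knockout lymph node arrays. All 4 knockout arrays lay below all 4 wild-type arrays, with an averaged log2 difference of -1.76 ± 0.33 (SE, limma adjusted p = 0.237). Array A of knockout spleen stood apart: over 11557 genes its log2 signals correlated at 0.854 with array B of its own group and at 0.924 with array A of knockout lymph node. Its 5 neutrophil markers summed to a signal of 8265, against 63.2 to 405 on the other arrays. The 9 macrophage markers summed to 12078 there and to 2077 to 8854 elsewhere. Xist, which marks female cells, was at 3565 to 7624 on 6 arrays and at 14.6 and 23.1 on array B of knockout spleen and of knockout lymph node. The sum of 3 Y-linked genes was 55.1 and 43.2 on the wild-type A arrays and 718 to 3006 on the other 6. The balance of female and male signals thus differed between arrays of 1 group, and its part in the values below was not tested beyond a fit with the Y-linked signal as a covariate. Of the 8 dendritic cell markers measured, Ccr7 and Zbtb46 were the highest, at 8241 to 14752 and 2054 to 3591. Batf3 was at 548 to 1069, Flt3 at 332 to 641, Itgax at 77.2 to 282, Siglech at 11.1 to 558 and Xcr1 at 1.65 to 52.1. Cd209a was at the floor of 9.58 on every array. The 6 B cell markers measured summed to 1963 on array A of knockout spleen and 971 on array A of knockout lymph node. On the other arrays they summed to 265 to 663, with 265 on array B of knockout spleen. The 6 T cell markers summed to 510 to 2139, with the highest sum also on array A of knockout spleen.

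Differences were tested with limma over 11557 genes, in a fit with a mean for each group. All 9 members passed the filter, a signal above 59.0 on at least 2 arrays. Pdcd1lg2 passed on 3 arrays and Vtcn1 on 2, so both sit at the edge of what was tested. A gene counted as called when its Benjamini-Hochberg adjusted p was under 0.05. In each of the 5 contrasts 0 of the 9 members were called. The background was 0 percent, since 0 of the 11557 genes were called, and Aire itself was among those tested. At an unadjusted p under 0.05, Cd80 and Cd86 differed between genotypes in spleen, where 8.42 percent of all genes did. In lymph node 0 members did, against 3.38 percent. For the average over tissues Cd86 did, against 8.00 percent. For the difference between tissues in the knockout effect 0 did, against 3.42 percent. Between spleen and lymph node, averaged over genotypes, Cd80, Cd86 and Cd274 did, against 10.7 percent.

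**Figure D1:**
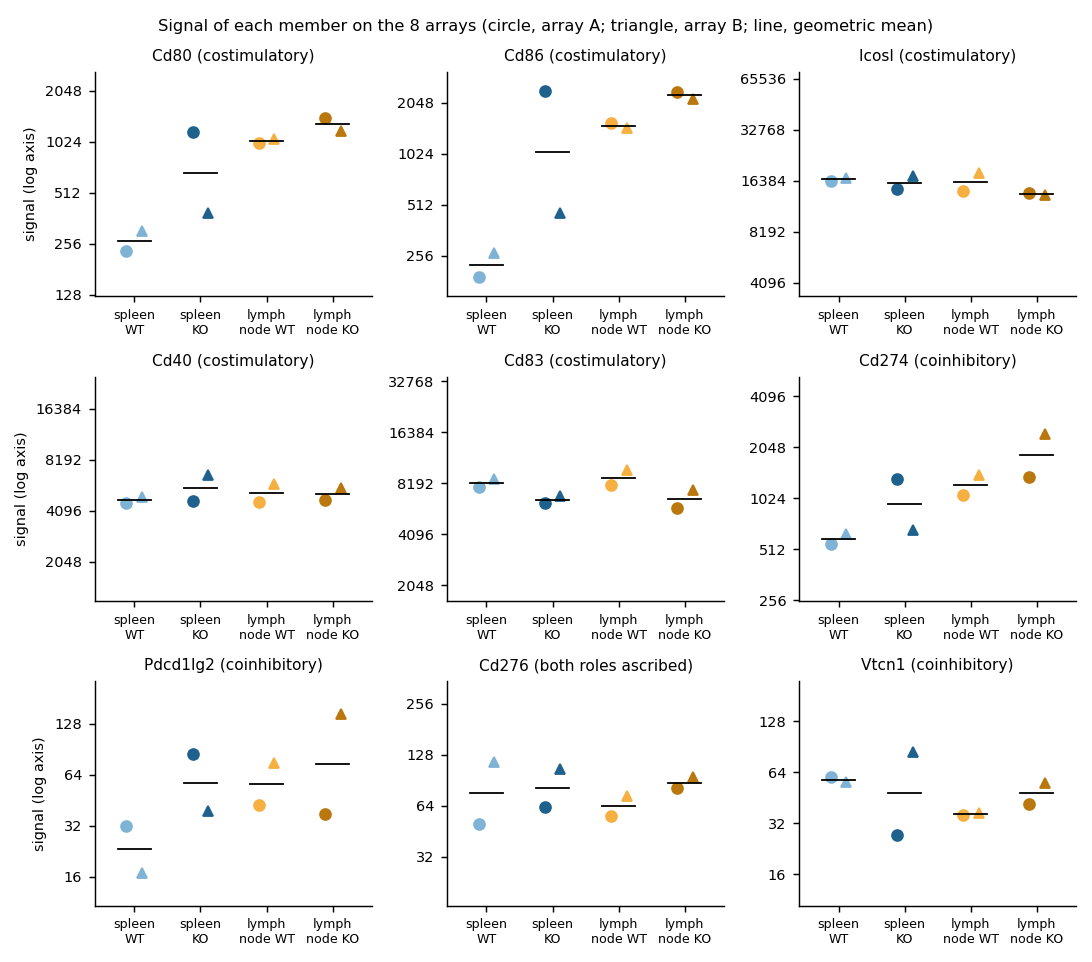
Signal of each member on the 8 arrays, on a log axis, by tissue and genotype. WT is wild-type, KO is knockout, circles are array A, triangles array B, and lines the geometric mean of 2 arrays. Cd80, Cd86 and Cd274 were lowest on the wild-type spleen arrays, while Icosl and Cd40 stayed within a range of 0.44 and 0.54 on the log2 scale over all arrays.

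Cd80 and Cd86, the ligands of CD28 and CTLA-4, were low in wild-type spleen and high in lymph node of both genotypes, and knockout spleen was split between its arrays. Cd80 had a signal of 232 and 305 in wild-type spleen, 1168 and 387 in knockout spleen, 1006 and 1065 in wild-type lymph node, and 1416 and 1180 in knockout lymph node. The group means ran from wild-type spleen (269 ± 51.1, SD, n = 2) through knockout spleen (777 ± 552) to lymph node, first wild-type (1035 ± 42.2), then knockout (1298 ± 167). Knockout spleen overlapped wild-type lymph node, and the other neighbours in this order did not overlap. Between genotypes Cd80 differed by 1.34 ± 0.53 (SE) on the log2 scale in spleen, a ratio of 2.53 with a 95% interval of 1.07 to 5.99 and a limma adjusted p of 0.574. In lymph node the log2 difference was 0.32 ± 0.53 (limma adjusted p = 0.99983). Without array A of knockout spleen the log2 difference in spleen was 0.54, and without array B it was 2.13.

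Cd86 followed the same order with a wider span. Its signal was 190 and 265 in wild-type spleen, 2398 and 456 in knockout spleen, 1546 and 1448 in wild-type lymph node, and 2369 and 2160 in knockout lymph node. Array A of knockout spleen was the highest of all 8 arrays, 12.6 times the lowest, and array B lay nearer to wild-type spleen. The means were 227 ± 52.8 (SD, n = 2) in wild-type spleen, 1427 ± 1374 in knockout spleen, 1497 ± 69.7 in wild-type lymph node and 2265 ± 148 in knockout lymph node. Knockout spleen overlapped both lymph node groups, and the lymph node groups did not overlap each other. The knockout minus wild-type log2 difference of Cd86 was 2.22 ± 0.71 (SE) in spleen, a ratio of 4.66 with a 95% interval of 1.44 to 15.0 and a limma adjusted p of 0.490. In lymph node it was 0.60 ± 0.71 (limma adjusted p = 0.99983), and averaged over tissues 1.41 ± 0.50 (limma adjusted p = 0.550). The difference between the tissues in this effect was 1.62 ± 1.01 (limma adjusted p = 0.999), so an unequal effect was not shown. On leaving out 1 array at a time this difference ran from 0.43, without array A of knockout spleen, to 2.82, without array B of that group, and the averaged effect from 0.81 to 2.01 over the same arrays. Without array A of knockout spleen the difference in spleen was 1.02, and without array B it was 3.42. The exact permutation p for the average, with genotype permuted within tissue, was 0.0556 (two-sided) for Cd80 and for Cd86, the smallest this design allows. It takes the spleen and lymph node arrays as independent. Arrays of the same letter and genotype had like Xist and Y-linked signals in both tissues, and the labels do not say whether they share animals. If they do, fewer permutations exist and this p could not be reached.

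Macrophages also carry CD86, so their markers are given beside it. The mean log2 signal of the 9 macrophage markers was 6.52 and 5.57 in wild-type spleen, 9.03 and 7.15 in knockout spleen, 6.97 and 6.30 in wild-type lymph node, and 8.79 and 7.49 in knockout lymph node. Of these markers 8 of 9 were higher in knockout on average in each tissue, none was called, and none was at the floor on all arrays. Their sums ran from 2239 to 3352 in wild-type spleen, 2620 to 12078 in knockout spleen, 2077 to 3873 in wild-type lymph node and 4240 to 8854 in knockout lymph node. The sums overlapped between the 2 wild-type groups and between the 2 knockout groups. Vcam1 alone gave 2011 and 1714 of the sums in wild-type spleen and 1605 and 1118 in wild-type lymph node. Averaged over genotypes, 7 of the 9 markers were lower in spleen than in lymph node and 2 higher, with a median log2 difference of -0.28. Cd86 was at 190 and 265 in wild-type spleen and at 1546 and 1448 in wild-type lymph node. Proliferation and plasma cell markers were also higher in knockout, with 4 of 4 tested in each list positive in both tissues and none called. The median log2 difference of the proliferation markers was 1.07 in spleen and 1.76 in lymph node. That of the plasma cell markers was 0.89 in spleen, with 0.91 in lymph node. The 4 proliferation markers summed to 1085 to 2050 in wild-type spleen, 1633 to 6060 in knockout spleen, 1323 to 1525 in wild-type lymph node and 1474 to 2784 in knockout lymph node. For the 5 plasma cell markers measured the sums were 1044 to 4380, 965 to 10884, 502 to 1267 and 1050 to 2034 in the same order. No marker of either list was at the floor on all arrays. The part of these cells, and of B cells and dendritic cells, in the genotype and tissue differences of Cd80 and Cd86 was not tested. In these samples, fewer cells of a type and less RNA per cell cannot be told apart. The A arrays of both knockout groups, where the macrophage markers were highest, were also left out, a choice made after seeing the data. Cd86 then differed between genotypes by 1.02 in spleen and 0.53 in lymph node. The macrophage means of the remaining knockout arrays, 7.15 and 7.49, were still above wild-type in the same tissue, so this does not test the part of macrophages.

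**Figure D2:**
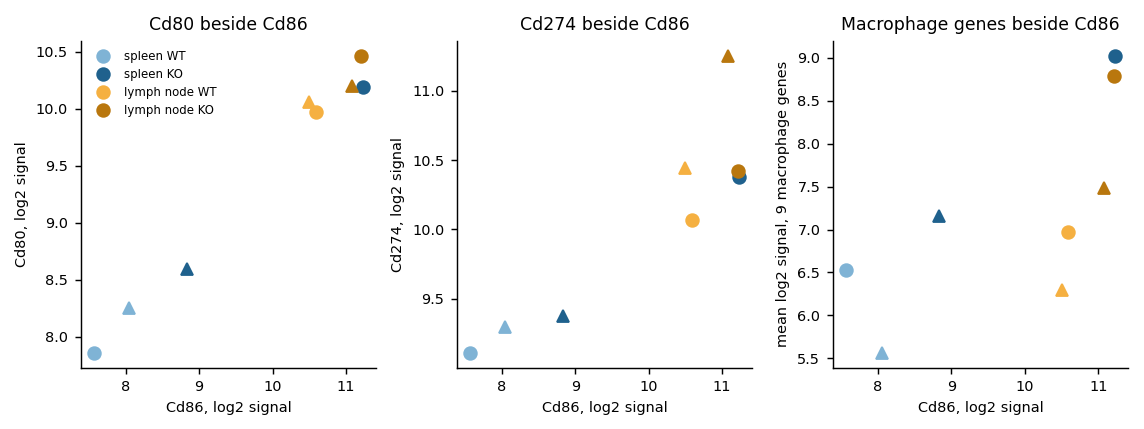
Log2 signal of Cd80, of Cd274 and the mean log2 signal of 9 macrophage markers, each against the log2 signal of Cd86. Each point is 1 of the 8 arrays, with circles for array A and triangles for array B. Cd80 and Cd86 lie near a line. The macrophage means of the wild-type arrays were 6.52 and 5.57 in spleen and 6.97 and 6.30 in lymph node.

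The second Cd86 probe set also put both wild-type spleen arrays below all others. This probe set, 1420404_at, had a signal of 243 and 170 in wild-type spleen, 1095 and 323 in knockout spleen, 525 and 824 in wild-type lymph node, and 874 and 780 in knockout lymph node. Its difference in spleen was 1.55 ± 0.60 (SE), against 2.22 for 1449858_at, which stands for the gene. The 4 Cd80 probe sets differed in spleen by 0.74 to 1.95. All 4 were lowest on array A of wild-type spleen. On 2 of them both wild-type spleen arrays were below all others, and on the other two array B of wild-type spleen was above array B of knockout spleen. The spread was widest for 1427717_at, whose 2 wild-type spleen signals were 12.1 and 114.

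The promoter of Cd80 is shown because Cd80 and Cd274 had related profiles over the arrays. It lies at chr16:38458683-38458982 on the plus strand (RefSeq, GRCm38.p6) and runs from 250 bases before the start of the gene to 50 after it. It was searched on both strands for the NF-kB consensus, for the GAS element TTCNNNGAA and for the ISRE core GAAANNGAA. None of the 3 motifs has a match in this window.

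Cd80: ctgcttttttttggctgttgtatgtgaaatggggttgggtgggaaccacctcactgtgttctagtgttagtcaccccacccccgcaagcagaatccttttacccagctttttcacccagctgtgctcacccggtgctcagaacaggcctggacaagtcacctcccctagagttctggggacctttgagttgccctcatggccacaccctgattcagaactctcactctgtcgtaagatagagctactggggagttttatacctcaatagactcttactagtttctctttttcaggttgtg

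Among 32851 mouse promoters of 300 bases, 8.46 percent hold the NF-kB consensus, 8.3 percent the GAS element and 8.56 percent the ISRE core. Promoters were found for 6 of the 9 members: Cd80, Icosl, Cd274, Pdcd1lg2, Cd276 and Vtcn1. A match is a run of letters and does not show a site in use.

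Icosl, the ligand of ICOS on T cells, was high on every array. Its probe set 1419212_at had a signal of 16364 and 17039 in wild-type spleen, 14516 and 17415 in knockout spleen, 14219 and 18193 in wild-type lymph node, and 13797 and 13384 in knockout lymph node. Knockout lymph node lay just below the other 3 groups, which overlapped each other. The genotype difference was -0.07 ± 0.30 (SE, log2) in spleen and -0.24 ± 0.30 in lymph node (limma adjusted p = 0.971 and 0.99983). The 95% interval in spleen was -0.79 to 0.65. Icosl spanned 0.44 on the log2 scale over the 8 arrays, and 1.83 percent of the tested genes spanned less. The median span was 1.45, over tested genes of all signal levels. Genes of like signal were not compared.

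A second Icosl probe set did not follow the first. The signal of 1426087_at was 1614 and 1272 in wild-type spleen, 517 and 300 in knockout spleen, 603 and 754 in wild-type lymph node, and 554 and 523 in knockout lymph node. Wild-type spleen was above the other 3 groups, with no overlap. In a fit of all 26480 probe sets that passed the filter, its difference in spleen was -1.86 ± 0.39 (SE), with an unadjusted p of 0.0020 and a limma adjusted p of 0.386. In that fit 0.00755 percent of probe sets were called in spleen and 7.90 percent had an unadjusted p under 0.05. Both probe sets have Icosl as their only symbol, and which transcripts each detects was not analysed here. The Icosl promoter, at chr10:78069118-78069417 on the plus strand, holds 1 match to the NF-kB consensus and none to the other motifs.

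**Figure D3:**
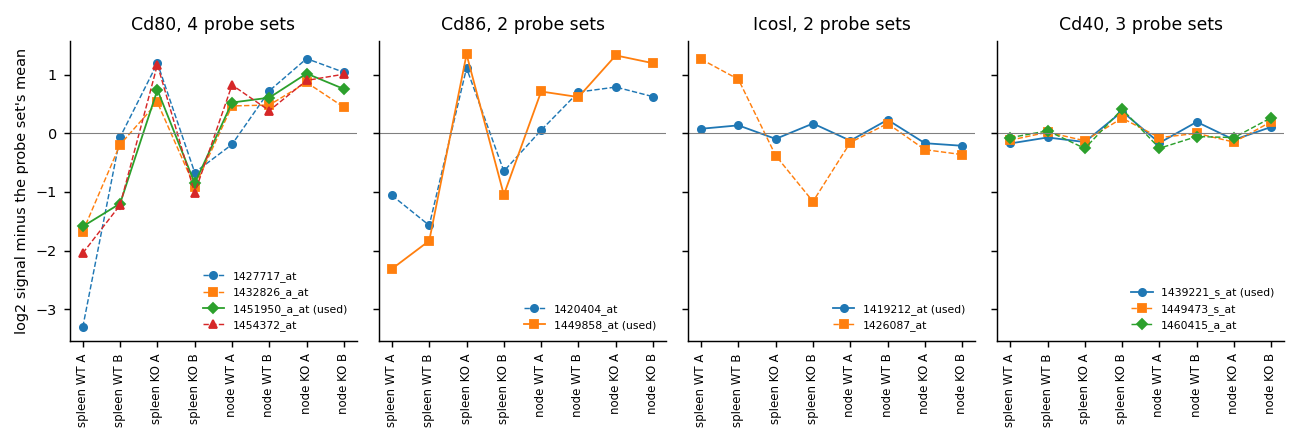
Log2 signal of each probe set minus its own mean over the 8 arrays, for the 4 members with more than 1 probe set. The solid line is the probe set that stands for the gene, and WT and KO are wild-type and knockout. The Cd80 and Cd86 probe sets are low on array A of wild-type spleen and high on array A of knockout spleen, the Cd40 probe sets vary little, and 1426087_at of Icosl is high in wild-type spleen while the other Icosl probe set is flat.

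Cd40, the receptor through which T cells license antigen-presenting cells, varied little. Its signal was 4582 and 4917 in wild-type spleen, 4659 and 6683 in knockout spleen, 4612 and 5910 in wild-type lymph node, and 4783 and 5572 in knockout lymph node. All 4 groups overlapped. Cd40 differed between genotypes by 0.23 ± 0.33 (SE, log2) in spleen and by -0.02 ± 0.33 in lymph node (limma adjusted p = 0.883 and 0.99983). The 95% interval of its average over tissues was -0.45 to 0.67, so a change beyond a ratio of 1.59 lies outside it. The span over arrays was 0.54, and 4.31 percent of tested genes spanned less, again without matching for signal. On all 3 Cd40 probe sets array B of knockout spleen was the highest.

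Cd83, the surface protein of mature dendritic cells, was lower on all 4 knockout arrays than on all 4 wild-type arrays. Its signal was 7814 and 8690 in wild-type spleen, 6232 and 6895 in knockout spleen, 7955 and 9824 in wild-type lymph node, and 5856 and 7450 in knockout lymph node. The tissues overlapped within each genotype. Of all genes, 23.9 percent were lower in both knockout arrays than in both wild-type arrays in spleen, and 16.2 percent in lymph node. The share with this order over both tissues was not counted. The log2 difference between genotypes was -0.33 ± 0.31 (SE) in spleen, -0.42 ± 0.31 in lymph node and -0.38 ± 0.22 on average (limma adjusted p = 0.813, 0.99983 and 0.709). The exact permutation p of the average was 0.0556, the smallest possible, and it too takes the spleen and lymph node arrays as independent. The median of all genes was -0.06 for this contrast. Of the 6 dendritic cell markers tested, 3 were higher and 3 lower in knockout on average, with a median of -0.11 and a range of -0.43 for Ccr7 to 1.46 for Siglech. By tissue, 3 were higher and 3 lower in knockout spleen, with a median of -0.12 and a range of -0.44 for Batf3 to 3.22 for Siglech. Siglech and Itgax (1.32) were the 2 of these markers with an unadjusted limma p under 0.05 in spleen, against 8.42 percent of all genes. All 6 were lower in knockout lymph node, with a median of -0.25. Their part in the Cd83 value was not tested.

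Cd274 and Pdcd1lg2, the ligands of PD-1, were lowest in wild-type spleen. Cd274 had a signal of 552 and 627 in wild-type spleen, 1334 and 664 in knockout spleen, 1075 and 1395 in wild-type lymph node, and 1373 and 2445 in knockout lymph node. The group means were 590 ± 53.1 (SD, n = 2), 999 ± 473, 1235 ± 226 and 1909 ± 758 in this order, and each of the last 3 overlapped its neighbour. Wild-type spleen stood below all others. The genotype difference was 0.68 ± 0.46 (SE, log2) in spleen and 0.58 ± 0.46 in lymph node (limma adjusted p = 0.750 and 0.99983). In spleen it was 0.17 without array A of the knockout and 1.18 without array B, and in lymph node 0.997 without array A of the knockout and 0.16 without array B. The high knockout array was thus A in spleen and B in lymph node.

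Pdcd1lg2 was near the lower end of the measured range. Its signal was 31.8 and 16.9 in wild-type spleen, 84.9 and 39.1 in knockout spleen, 42.2 and 75.6 in wild-type lymph node, and 37.4 and 146 in knockout lymph node. Wild-type spleen was lowest, and the other 3 groups overlapped. It differed by 1.31 ± 0.75 (SE, log2) in spleen and by 0.39 ± 0.75 in lymph node (limma adjusted p = 0.696 and 0.99983). Without array B of knockout lymph node the value in lymph node was -0.59, and without array A it was 1.37. Without array A of wild-type lymph node it was -0.032. The direction in lymph node was thus lost on leaving out either of 2 arrays. In spleen the value was 0.75 without array A of the knockout and 1.87 without array B.

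Both genes lie on chromosome 19, and their promoters are shown since their products share a receptor and Cd274 and Pdcd1lg2 were both lowest in wild-type spleen. The windows are chr19:29367188-29367487 for Cd274 and chr19:29410669-29410968 for Pdcd1lg2, both on the plus strand (RefSeq, GRCm38.p6). Capitals mark the motif matches.

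Cd274: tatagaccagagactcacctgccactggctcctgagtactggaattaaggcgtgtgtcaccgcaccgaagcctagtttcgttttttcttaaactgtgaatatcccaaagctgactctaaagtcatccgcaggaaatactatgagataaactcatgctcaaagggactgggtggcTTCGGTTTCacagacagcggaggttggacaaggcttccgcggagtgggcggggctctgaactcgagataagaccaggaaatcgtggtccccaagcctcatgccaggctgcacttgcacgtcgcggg

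Pdcd1lg2: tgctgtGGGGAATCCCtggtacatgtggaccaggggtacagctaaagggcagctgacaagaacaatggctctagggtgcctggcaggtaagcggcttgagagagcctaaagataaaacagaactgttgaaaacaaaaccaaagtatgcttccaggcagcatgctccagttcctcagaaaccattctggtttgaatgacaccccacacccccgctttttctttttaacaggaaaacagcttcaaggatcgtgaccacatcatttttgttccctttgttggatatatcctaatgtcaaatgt

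The Cd274 window holds 1 match to the ISRE core, on the reverse strand, whose first base is at -76 from the start of the gene. The Pdcd1lg2 window holds 1 match to the NF-kB consensus, at -244. Neither holds a GAS element.

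Cd276 and Vtcn1 were low. Cd276 had a signal of 49.6 and 115 in wild-type spleen, 62.6 and 105 in knockout spleen, 55.8 and 73.5 in wild-type lymph node, and 80.9 and 94.0 in knockout lymph node. Array B was above array A in every group. Its genotype difference was 0.10 ± 0.49 (SE, log2) in spleen and 0.45 ± 0.49 in lymph node (limma adjusted p = 0.9747 and 0.99983). Vtcn1 had 59.7 and 56.0 in wild-type spleen, 27.3 and 84.5 in knockout spleen, 35.8 and 36.8 in wild-type lymph node, and 41.8 and 55.2 in knockout lymph node. Knockout spleen held both the lowest and the highest Vtcn1 signal. The genotype difference of Vtcn1 was -0.27 ± 0.53 in spleen and 0.41 ± 0.53 in lymph node (limma adjusted p = 0.919 and 0.99983). In spleen it was -1.08 without array B of the knockout and 0.55 without array A. The promoters of Cd276 and Vtcn1 hold none of the 3 motifs.

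**Figure D4:**
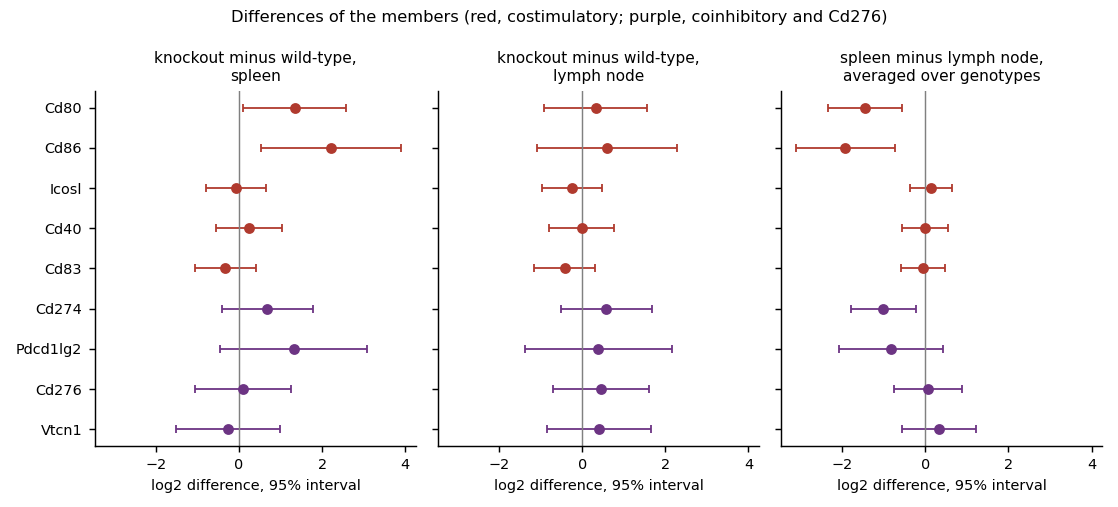
Log2 difference of each member with its 95% interval from the limma fit, for knockout minus wild-type in each tissue and for spleen minus lymph node. Red marks costimulatory and purple coinhibitory members with Cd276. In spleen the intervals of Cd80 and Cd86 lie above 0, in lymph node every interval holds 0, and between tissues those of Cd80, Cd86 and Cd274 lie below 0; no member passed the adjusted threshold.

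Without a test, whether 2 arrays of 1 group lay wholly above or below 2 of another was counted. In spleen 4 members were higher in every knockout array, Cd80, Cd86, Cd274 and Pdcd1lg2, against 13.3 percent of all genes. Cd83 was the 1 member lower in both knockout arrays, against 23.9 percent. In lymph node 4 were higher, Cd80, Cd86, Cd276 and Vtcn1, against 14.6 percent, and 2 were lower, Icosl and Cd83, against 16.2 percent. No test of these counts was made.

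The log2 differences of costimulatory and coinhibitory members overlapped in range. In spleen the median log2 difference between genotypes was 0.23 for the 5 costimulatory genes, with a range of -0.33 to 2.22, and 0.39 for the 4 coinhibitory ones, with a range of -0.27 to 1.31. The median of all genes was -0.09. In lymph node the medians were -0.02, with a range of -0.42 to 0.60, and 0.43, with a range of 0.39 to 0.58, against -0.03 for all genes. On average 3 of the 5 costimulatory and 4 of the 4 coinhibitory members had a positive difference, and 43.3 percent of all genes did. The ranges of the classes overlapped in each tissue, and within the costimulatory class Cd86 and Cd83 differed in sign.

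Between tissues, Cd86, Cd80 and Cd274 were lower in spleen. Averaged over genotypes, spleen minus lymph node was -1.93 ± 0.50 (SE, log2) for Cd86, a ratio of 3.80 with a 95% interval of 1.66 to 8.69, and the limma adjusted p was 0.285. Cd80 differed by -1.45 ± 0.37 (limma adjusted p = 0.285), a ratio of 2.73 with an interval of 1.48 to 5.04. Cd274 differed by -1.01 ± 0.33 (limma adjusted p = 0.364), a ratio of 2.01 with an interval of 1.18 to 3.44. The exact permutation p, with tissue permuted within genotype, was 0.0556 for Cd80 and Cd274, the smallest possible, and 0.167 for Cd86. This permutation and the limma fit take the spleen and lymph node arrays as independent. The labels do not say whether the tissues share animals. Pdcd1lg2 differed by -0.82 ± 0.53 (limma adjusted p = 0.640), and by -0.33 without array B of knockout lymph node. The other 5 members lay between -0.06 for Cd83 and 0.34 for Vtcn1. The median of all genes was 0.06.

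Without array A of knockout spleen the tissue difference was -2.52 for Cd86, -1.85 for Cd80 and -1.26 for Cd274, and without array B of that group it was -1.33, -1.05 and -0.76. Among wild-type arrays 4 members were lower in both spleen arrays, Cd80, Cd86, Cd274 and Pdcd1lg2, against 16.1 percent of all genes. Vtcn1 was the 1 member higher, against 25.5 percent. Among knockout arrays Cd80 and Cd274 were lower, against 12.9 percent, and Icosl was higher, against 17.6 percent. The comparison of wild-type tissues and that of genotypes in spleen share the wild-type spleen arrays, so their values for a member are not independent.

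The receptors of these ligands were given by a list of 6 genes, of which 4 were tested. None was called, 2 of 4 were higher and 2 lower in knockout on average, and the median was -0.14. Ctla4, the inhibitory receptor of CD80 and CD86, had a signal of 142 and 50.5 in wild-type spleen, 467 and 47.7 in knockout spleen, 17.9 and 7.01 in wild-type lymph node, and 267 and 72.4 in knockout lymph node. The lymph node groups did not overlap, and the averaged log2 difference was 2.11 ± 0.82 (SE, limma adjusted p = 0.593). Spleen exceeded lymph node by 1.40 ± 0.82 for Ctla4, and the difference was -0.71 ± 0.62 for Icos, the receptor of ICOSL. The averaged difference between genotypes was -0.78 ± 0.79 for Cd28, the activating receptor, and -0.43 ± 0.49 for Rgmb, a second receptor of PD-L2. Pdcd1, which encodes PD-1, was at 3.598 to 34.4 and Cd40lg at 4.20 to 45.2, both under the filter on all arrays. Among 8 other B7 and butyrophilin relatives 6 were measured and 2 tested. Vsir, the inhibitory B7 relative also called VISTA, differed by 1.42 ± 0.58 on average (limma adjusted p = 0.611) and by -1.38 ± 0.58 between tissues, and Btn1a1, a butyrophilin, by -0.33 ± 0.43 and 0.69 ± 0.43.

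Signalling below CD40 was given by 14 genes, of which 12 were measured and tested. None was called, and 10 of 12 were lower in knockout on average, with a median of -0.20 against -0.06 for all genes. Traf2, an adaptor that CD40 recruits, differed by -0.66 ± 0.23 (SE, limma adjusted p = 0.540), and its signal was 1057 and 1138 in wild-type spleen, 665 and 779 in knockout spleen, 543 and 735 in wild-type lymph node, and 353 and 422 in knockout lymph node. Genotypes did not overlap in either tissue, and spleen exceeded lymph node by 0.85 ± 0.23 (limma adjusted p = 0.287). Map3k14, the kinase NIK, differed by -0.57 ± 0.27 on average, and Relb, a subunit of non-canonical NF-kB, by -0.39 ± 0.25. Traf6, another adaptor of CD40, was the gene with the second smallest p between tissues, at -0.80 ± 0.40.

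Of 9 genes that set the transcription or surface level of B7 proteins, 8 were measured and tested, none was called, and 5 were higher and 3 lower on average. Marchf1, the ubiquitin ligase that removes CD86 from the surface, had a signal of 40.02 and 26.7 in wild-type spleen, 239 and 56.0 in knockout spleen, 30.8 and 28.5 in wild-type lymph node, and 379 and 56.8 in knockout lymph node. It was highest on the A array of both knockout groups, and its averaged log2 difference was 2.06 ± 0.69 (SE, limma adjusted p = 0.524). Cmtm6, which keeps PD-L1 on the surface, differed by -0.51 ± 0.27, and Jak2, a kinase of the interferon receptors, by 0.31 ± 0.26. Between tissues Marchf8, a relative of Marchf1, differed by 0.85 ± 0.26, and Cmtm4, a relative of Cmtm6, by 0.49 ± 0.23.

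For each member the 3 named genes with the most similar profile were found by Pearson's r of log2 signal over the 8 arrays. These are descriptions without a test: arrays of a group share tissue and genotype, and the best of 11557 genes over 8 points will be high. Cd80 was closest to Cd86 (r = 0.993, Spearman's rho = 0.905), then S100a6 (r = 0.991) and Gkap1 (r = 0.983). Cd86 was closest to Cd81, a tetraspanin (r = 0.993, rho = 0.976), then Cd80 and Nefl (r = 0.983). Cd86 and Cd80 were thus among each other's nearest genes. Cd274 was closest to Ergic1 (r = 0.970), Prdm1 (r = 0.957) and Mettl27 (r = 0.955), and Pdcd1lg2 to Wipf1 (r = 0.923), Prdm1 (r = 0.912) and Edc3 (r = 0.911). Prdm1, which encodes the repressor Blimp-1, appears for both PD-1 ligands. Cd274 itself correlated with Cd86 at r = 0.898 (rho = 0.714) and with Pdcd1lg2 at r = 0.851 (rho = 0.786).

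Icosl was closest to Brd2 (r = 0.984), H2-Eb1 (r = 0.973) and Prr13 (r = 0.971), and Cd83 to Sympk (r = 0.977), Rnf19a (r = 0.974) and B4galnt1 (r = 0.972). For Cd40 these genes were Uck1 (r = 0.984), Zfp748 (r = 0.951) and Echs1 (r = 0.943). H2-Eb1 encodes a chain of an MHC class II molecule. For Cd276 they were Ehmt2 (r = 0.977), Zfp956 (r = 0.945) and Map2k1 (r = 0.928), and for Vtcn1 Bcar1, Scmh1 (both r = 0.953) and Mlf2 (r = 0.943). Icosl, Cd40, Cd83, Cd276 and Vtcn1 had none of the other members among their 3 nearest genes.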

How the data were processed

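RNA of 8 samples was measured on Affymetrix arrays. The authors deposited 1 intensity per probe set, on a linear scale, made with MAS5 per the submitters' processing notes. Version and settings: not given in the sources used here. On every array as deposited the 2% trimmed mean was 250. Here 64 control probe sets were left out of 45101, arrays were shifted to a common median (their deposited medians were 53.8 to 65.3), signals under the 20th percentile, 9.58, were raised to it, and log2 was taken. Of 45037 probe sets, 34945 had 1 gene symbol. Each gene was given by its probe set with the highest mean, and genes above 59.0 on at least 2 arrays were tested. limma 3.58.1 in R 4.3.3 fitted 4 group means to all 8 arrays, with 4 residual degrees of freedom, Benjamini-Hochberg adjustment over all genes tested, and intervals at 95%. The procedure was tested on simulated data with changes larger than any member's difference in the reported fit. That test does not show whether changes of the members' size would be called. The number of arrays limits the precision.

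The members and lists were chosen with earlier results of these data known. All members are named. From each pathway list the text names the 3 genes with the smallest unadjusted p for the averaged knockout effect and the 2 for the tissue contrast, and for each member the 3 named genes with the highest r. Pdcd1, Cd40lg, Vcam1 and the dendritic cell markers were named outside this rule, after their values were seen. The letters A and B pair nothing the labels state, so no block was used in the tests reported. The alternatives tried concern normalization, low values, probe sets, the variance prior, covariates and the arrays used. For marker lists not described further, the median averaged log2 difference between genotypes was 0.30 for B cells (6 tested), 0.18 for T cells (5), 1.27 for neutrophils (2), -0.86 for epithelium (4), 0.32 for blood endothelium (3), 0.0089 for stroma (2) and 0.10 for erythroid cells (3). Of 3 NK cell markers measured, 0 were tested.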

Additional observations from a re-analysis of the deposited data

How the results depend on the processing

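Under 24 alternative settings, 966 values of members were recomputed, 914 kept their direction, 52 reversed and 0 passed the adjusted threshold. Much of this agreement was fixed in advance. Changing the filter or the variance prior, testing every probe set, leaving out the floor, blocking by letter and fitting 1 tissue alone cannot change a member's log2 difference. For a difference within 1 tissue, leaving out an array of the other tissue cannot either. The lowest adjusted p of a member was 0.0682, for Cd86 between tissues without array A of knockout spleen. The directions of Cd80 and Cd86 in all 5 contrasts and of Cd83 between genotypes held in every setting run for them, including those that cannot change them. The same was true of Cd274 between genotypes and between tissues, and of Pdcd1lg2 in spleen, on average and between tissues. It was also true of Icosl in lymph node, on average and between tissues, and of Cd276 and Vtcn1 in lymph node. Reversals included larger values, such as the tissue difference in the effect of Pdcd1lg2 (0.92 in the reported fit) and of Vtcn1 (-0.67). The cause was not tested.

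For Cd40 in lymph node the value was 0.090 with quantile normalization, 0.023 without the shift of arrays and 0.099 with the mean of probe sets. Cd40 between tissues was 0.021 with the mean of probe sets. Without the shift Icosl in spleen was 0.039 and Cd276 between tissues -0.030. With the mean of probe sets the tissue difference in the Icosl effect was -0.68. With the Y-linked signal as a covariate, Cd276 was -0.28 in spleen and -0.086 on average, Vtcn1 -0.032 and Cd40 -0.028 on average. Without both knockout A arrays, chosen after seeing the data, Icosl was 0.061 and Vtcn1 0.55 in spleen, Cd40 0.094 in lymph node and 0.062 between tissues, and the tissue difference in the effect was -0.82 for Cd274, -0.62 for Pdcd1lg2 and -0.010 for Cd83.

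Counts of called genes were 0 in the reported fit. For the tissue contrast they were 1 with quantile normalization, without the shift, without the filter and with the mean of probe sets, 3 with the floor at the 40th percentile and 48 with limma's trended robust prior. For the averaged genotype contrast they were 2 with that floor, 3 with every probe set tested and 6 with that prior. In spleen they were 2 with every probe set and 1 with that prior, and in lymph node 3 with every probe set. No member was among them.

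Leaving out 1 array at a time, the called genes of the averaged contrast ran from 0 to 2. In spleen Cd276 ran from -0.51 to 0.71, Icosl from -0.20 to 0.061, Vtcn1 from -1.08 to 0.55 and Cd40 from -0.027 to 0.49. In lymph node Pdcd1lg2 ran from -0.59 to 1.37 and Cd40 from -0.20 to 0.16. On average Cd276 ran from -0.031 to 0.58, Vtcn1 from -0.34 to 0.48 and Cd40 from -0.022 to 0.24. For the tissue difference in the effect Cd276 ran from -0.95 to 0.26, Cd274 from -0.41 to 0.60, Vtcn1 from -1.49 to 0.14, Cd40 from -0.011 to 0.51, Icosl from -0.0052 to 0.35, Cd83 from -0.083 to 0.26 and Pdcd1lg2 from -0.060 to 1.91. Between tissues Cd40 ran from -0.14 to 0.12, Cd276 from -0.24 to 0.37, Vtcn1 from -0.072 to 0.74 and Cd83 from -0.14 to 0.031.

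With the letter as a replicate block 0 genes were called in each contrast and Cd86 in spleen stayed at 2.22. The deviations of A and B correlated between groups at 0.055 to 0.306 over 11557 genes, which does not show that the letters pair the samples. With the letter within genotype as a replicate block, run for the tissue contrast and the tissue difference, 0 genes were called. The stricter filter left out Pdcd1lg2 and Vtcn1, and without the shift Vtcn1 failed the filter. Pdcd1lg2, Cd276 and Vtcn1 had signals near 59.0, but precision did not follow signal alone. The SE of the log2 difference in spleen was 0.75 for Pdcd1lg2, 0.71 for Cd86 and 0.53 for Vtcn1 and Cd80. It was 0.49 for Cd276 and 0.30 to 0.46 for the other members.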
